A study of Rattus norvegicus with 8 samples.

Results

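The circadian clock genes measured here are 9 genes: Bmal1, Per2, Dbp, Tef, Hlf, Nr1d1, Nr1d2, Bhlhe40 and Bhlhe41. They were chosen by name as the loop and output factors of the molecular clock, and every probe set whose single gene symbol was one of these was kept, which gave 14 of the 8740 probe sets, for 9 of the 4736 genes named on the array. Each probe set is a group of short probes against one transcript and is described apart from the others. Of the 14, 13 passed a filter on dim signals and were among the 5244 that were tested. The remaining one, for Hlf, is described without a test.

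RNA came from the soleus, a hindlimb muscle of mostly slow fibres that is active in standing, of female rats. In the walked group (2 arrays), rats were kept off their hindlimbs for 12 h and then walked on a treadmill for 2 h in all, as bouts of 30 min alternating with 30 min of cage activity over 4 h. The unloaded group (3 arrays) had the 12 h off the hindlimbs alone, and the control group (3 arrays) had 12 h of normal standing and movement in the cage. Each array received a pool of RNA from 8 to 10 rats, so the spread between arrays is that between pools. The strain and age of the rats, and the time of day at which muscles were taken, are not stated in the sources used here. Walked muscles were taken after the 4 h walking period that followed unloading. For genes whose level follows the time of day, a response to unloading or to walking and a difference in the time of sampling cannot be told apart here.

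The mammalian clock is a transcriptional feedback loop that runs in nearly every tissue, skeletal muscle included. BMAL1 pairs with CLOCK and activates genes through short E-box sequences, among them the Per and Cry genes, whose products then inhibit the pair. The same pair drives Nr1d1 and Nr1d2, which encode the REV-ERB nuclear receptors, and these repress Bmal1 through ROR response elements, or ROREs. DBP, TEF and HLF carry the rhythm to output genes through D-box sequences, and BHLHE40 and BHLHE41 compete for E-boxes. In muscle, the clock is known for timing fuel use.

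RefSeq start sites of assembly GRCr8 matched 8 of the 9 genes, all but Hlf. The 250 bases before the start are shown for the 5 genes whose signals differed most in at least 1 comparison, so that the elements of the loop can be seen beside the values. They lie at chr1:176766078-176766327 on the plus strand for Bmal1, chr1:105312006-105312255 (plus) for Dbp, chr15:9954784-9955033 (plus) for Nr1d2, chr4:143174200-143174449 (plus) for Bhlhe40 and chr9:99496994-99497243 (minus) for Per2. Capitals mark matches, on either strand, to the E-box CACGTG, its variant CACGTT, the D-box TTANGTAA, the nuclear receptor half-site AGGTCA, the full RORE, and TAGGTNA, a shorter form of the RORE core that was added after the Bmal1 sequence had been seen.
Bmal1: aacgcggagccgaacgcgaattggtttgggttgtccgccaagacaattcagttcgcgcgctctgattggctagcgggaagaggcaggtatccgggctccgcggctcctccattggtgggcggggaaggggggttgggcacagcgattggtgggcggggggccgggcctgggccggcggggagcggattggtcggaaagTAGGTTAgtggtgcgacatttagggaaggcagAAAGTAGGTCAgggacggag
Dbp: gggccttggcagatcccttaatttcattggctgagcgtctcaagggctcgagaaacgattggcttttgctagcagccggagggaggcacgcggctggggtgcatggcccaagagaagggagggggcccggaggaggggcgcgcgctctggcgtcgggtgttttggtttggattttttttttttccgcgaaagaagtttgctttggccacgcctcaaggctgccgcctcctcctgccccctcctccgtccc
Nr1d2: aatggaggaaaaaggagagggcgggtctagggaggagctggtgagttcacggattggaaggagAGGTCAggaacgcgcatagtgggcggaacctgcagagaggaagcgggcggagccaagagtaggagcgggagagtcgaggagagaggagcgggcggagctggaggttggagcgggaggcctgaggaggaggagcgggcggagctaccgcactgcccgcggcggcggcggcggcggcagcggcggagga
Bhlhe40: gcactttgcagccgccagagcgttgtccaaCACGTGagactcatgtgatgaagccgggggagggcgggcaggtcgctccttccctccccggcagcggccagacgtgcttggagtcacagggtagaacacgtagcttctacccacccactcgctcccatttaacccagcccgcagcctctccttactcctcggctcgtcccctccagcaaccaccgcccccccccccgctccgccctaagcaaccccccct
Per2: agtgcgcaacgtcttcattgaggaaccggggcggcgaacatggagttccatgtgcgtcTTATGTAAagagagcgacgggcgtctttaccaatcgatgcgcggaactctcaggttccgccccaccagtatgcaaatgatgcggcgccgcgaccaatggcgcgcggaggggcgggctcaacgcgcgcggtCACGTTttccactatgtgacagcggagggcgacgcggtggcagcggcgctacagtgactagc
The Bmal1 window held 1 full RORE, beginning 20 bases before the start, which contains both an AGGTCA and a TAGGTNA match, and a second TAGGTNA match beginning 52 bases before the start. A full RORE was present in 0.317% of 33469 windows of the same length, AGGTCA in 14.1% and TAGGTNA in 7.55%. The Nr1d2 window held AGGTCA 187 bases before the start. CACGTG stood 220 bases before the start of Bhlhe40, and was also found in the windows of Tef (198 bases), Bhlhe41 (48 bases) and 1 of the 2 RefSeq starts of Nr1d1 (191 bases), against 5.59% of all windows. Per2 held CACGTT at 62 bases, found in 4.07% of windows, and TTANGTAA at 192 bases, found in 2.04%. None of these letters was found in this stretch before Dbp. A match is a description of the sequence and was not tested as a binding site.

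After 12 h of unloading, Bmal1 was the clock gene that fell, to 0.4895 times its control level on 1 of its 2 probe sets. After walking, Bmal1 rose above its unloaded level on that probe set, while Dbp, the D-box activator, fell on 1 of 2 probe sets, to 0.454 times its unloaded and 0.398 times its control level. Tef and Hlf, its closest relatives, were not called in any comparison. Nr1d2 and Bhlhe40 were the members nearest to the threshold without passing it, Nr1d2 higher in unloaded and Bhlhe40 higher in walked than in control soleus. The values are deposited signal intensities, scaled to one trimmed mean per array, and a probe set is said to have risen or fallen where its limma p-value, adjusted over all 5244 tested probe sets, was under 0.05.

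**Figure D1:**
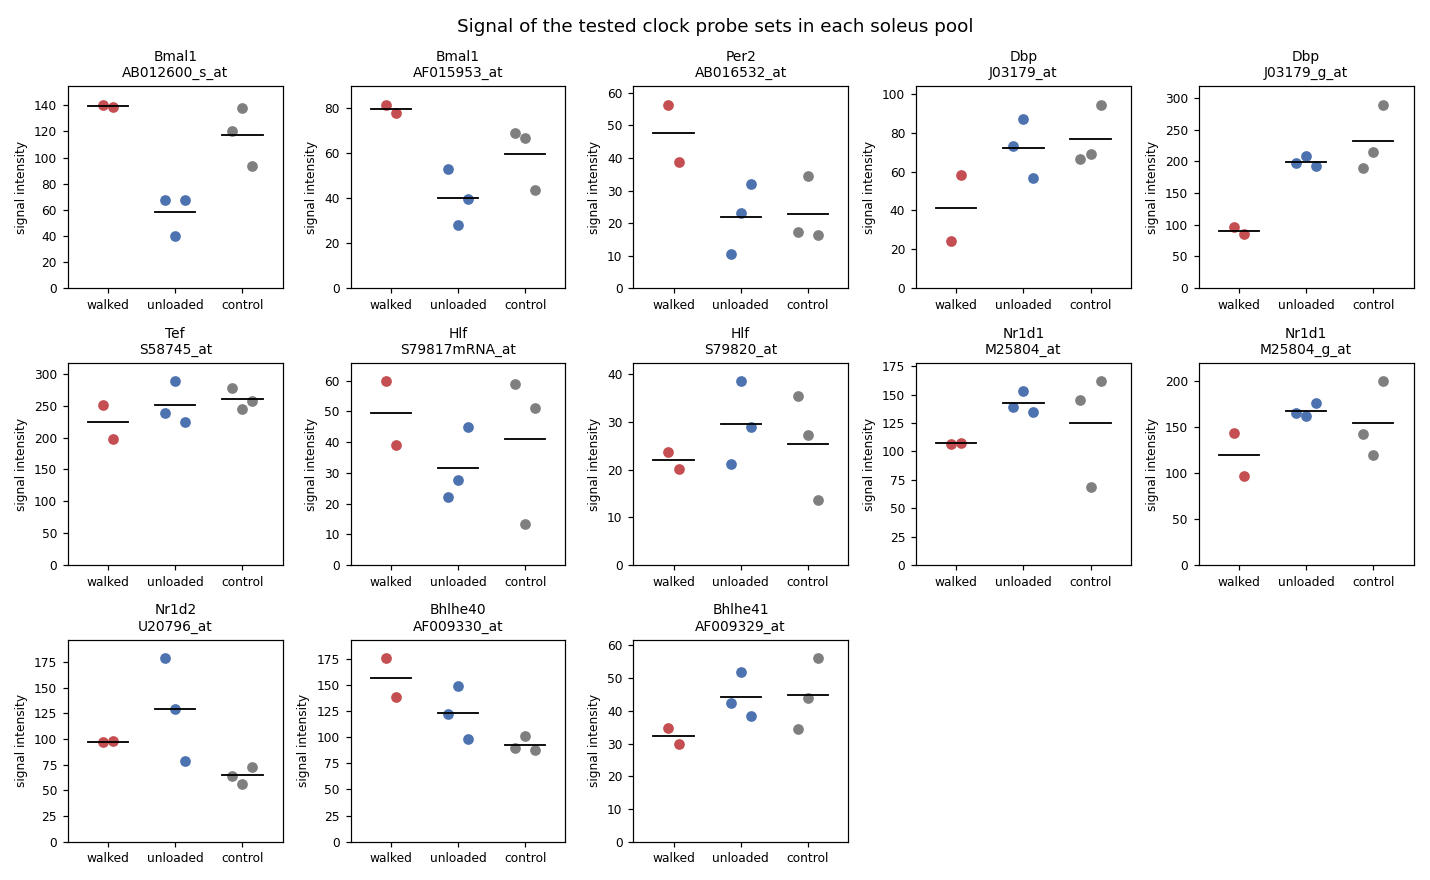
Signal intensity (linear scale from 0, vertical axis) of the 13 tested clock probe sets in each pool, with walked, unloaded and control groups from left to right. Points are single arrays and bars are group means. On probe set AB012600_s_at of Bmal1 the 3 unloaded pools lie below all others, and on J03179_g_at of Dbp the 2 walked pools do.

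Bmal1 is the positive arm of the loop. Its probe set AB012600_s_at had signals of 141 and 139 in the walked pools, 67.6, 40.1 and 67.2 in the unloaded pools, and 120.2, 138 and 93.5 in the control pools. All 3 unloaded pools lay below every other pool, and both walked pools lay just above the highest control. Unloaded averaged 58.3 ± 15.8 and control 117 ± 22.5 (SD, n = 3 each), a log2 fold change of -1.03 ± 0.24 (SE, adjusted p = 0.0219). Walked averaged 139.7 ± 1.25 (SD, n = 2), 1.30 ± 0.26 above unloaded on the log2 scale (adjusted p = 0.0169). In whole muscle, fewer cells that make a transcript and less transcript per cell cannot be told apart.

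Against control, the walked level of AB012600_s_at was 0.27 ± 0.26 higher on the log2 scale (adjusted p = 0.580), and the 95% interval of the ratio ran from 0.806 to 1.80. The other Bmal1 probe set, AF015953_at, had 81.4 and 77.7 in walked pools, 52.7, 28.0 and 39.7 in unloaded pools and 68.6, 66.4 and 43.7 in control pools. The order of the groups was the same, but an unloaded and a control pool overlapped. Its log2 fold changes were -0.59 ± 0.28 in unloaded against control (adjusted p = 0.258), 1.03 ± 0.31 when walked was set against unloaded (adjusted p = 0.106) and 0.45 ± 0.31 when it was set against control (adjusted p = 0.426), none of them called.

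Both Bmal1 calls rested on few pools. The fall in unloaded soleus missed the threshold without control pool 1 (adjusted p = 0.0663), control pool 2 (0.0805) or unloaded pool 2 (0.0653), and the rise after walking missed it without either walked pool (0.114 without pool 1 and 0.117 without pool 2) and in the fit with a block for pool number (1.28, adjusted p = 0.0501). The log2 fold change itself stayed between -1.19 and -0.78 in the first comparison and between 1.05 and 1.43 in the second when 1 array was left out.

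Per2, Bhlhe40 and Bhlhe41 encode inhibitors of E-box activation. Per2 had 56.4 and 38.7 in walked pools, 10.6, 23.2 and 32.0 in unloaded pools and 17.2, 34.6 and 16.4 in control pools. Both walked pools exceeded all others, while unloaded and control pools covered the same range. The log2 fold change was 1.23 ± 0.57 in walked against unloaded (adjusted p = 0.294) and 1.13 ± 0.57 in walked against control (adjusted p = 0.2501), neither called. Per2 passed the filter through its walked arrays: its mean over all arrays was 28.6 against a filter of 25.8, and its unloaded and control means of 21.9 and 22.7 were under it.

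Bhlhe40, known as DEC1, had 175 and 138 in walked pools, 122, 149 and 98.3 in unloaded pools and 89.3, 100.9 and 87.6 in control pools. The walked pools did not overlap the control pools, and the unloaded pools spanned the space between. Walked averaged 157 ± 26.1 (SD, n = 2) and control 92.6 ± 7.20 (SD, n = 3), a log2 fold change of 0.75 ± 0.21 with an adjusted p of 0.0502, which misses the threshold. The interval of that ratio was 1.22 to 2.33. Against control, unloaded differed by 0.39 ± 0.19 (adjusted p = 0.269), and walked differed from unloaded by 0.36 ± 0.21 (adjusted p = 0.4295).

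Bhlhe41, known as DEC2, showed no such order, with 34.9 and 29.9 in walked pools, 42.4, 51.8 and 38.6 in unloaded pools and 34.5, 43.9 and 56.1 in control pools. The walked pools lay below the unloaded ones and overlapped the controls. Its log2 fold change was -0.44 ± 0.31 in walked against unloaded (adjusted p = 0.5199) and -0.45 ± 0.31 in walked against control (adjusted p = 0.424).

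Nr1d1 and Nr1d2 encode REV-ERB alpha and REV-ERB beta, the repressors of Bmal1. Nr1d2 had 97.2 and 98.2 in walked pools, 179, 129 and 79.2 in unloaded pools and 64.5, 56.4 and 73.1 in control pools. Every unloaded and walked pool exceeded every control pool, with unloaded pool 3 closest to them. Unloaded averaged 129 ± 49.8 against 64.7 ± 8.35 in control (SD, n = 3 each), a log2 fold change of 0.93 ± 0.26 with an adjusted p of 0.0603. Without unloaded pool 3 it was 1.24 (adjusted p = 0.00719), and without unloaded pool 1 it was 0.65 (adjusted p = 0.195). Walked against control gave 0.60 ± 0.30 (adjusted p = 0.238), and walked against unloaded -0.32 ± 0.30 (adjusted p = 0.640).

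Nr1d1 was measured by 2 probe sets made from the same accession. M25804_g_at had 143 and 96.5 in walked pools, 165, 162 and 176 in unloaded pools and 142, 119.9 and 199.7 in control pools. M25804_at had 107 and 107 in walked pools, 139, 153 and 134 in unloaded pools and 145, 68.7 and 162 in control pools. On both probe sets the walked pools lay below the unloaded ones, and the control pools overlapped both groups, with walked pool 2 below every control on M25804_g_at. The log2 fold changes in walked against unloaded were -0.51 ± 0.24 (adjusted p = 0.297) and -0.41 ± 0.31 (adjusted p = 0.556), and those in unloaded against control 0.16 ± 0.21 and 0.28 ± 0.28 (adjusted p = 0.732 and 0.626). In the GRCr8 gene table Nr1d1 overlaps its neighbour Thra over 1061 bases, and signal from probes in that stretch could not be assigned to 1 of the 2 genes. Probe positions were not used here.

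Dbp, Tef and Hlf form the PAR bZIP family of output activators. Dbp probe set J03179_g_at had 96.2 and 85.1 in walked pools, 197, 208 and 193 in unloaded pools and 189.6, 215 and 289.5 in control pools. The walked pools lay far below all others, and the unloaded pools fell at the low end of the controls. Walked averaged 90.7 ± 7.80 (SD, n = 2), against 199.6 ± 7.79 in unloaded and 231 ± 52.0 in control (SD, n = 3 each). The log2 fold change was -1.14 ± 0.20 against unloaded (adjusted p = 0.00567) and -1.33 ± 0.20 against control (adjusted p = 0.00253). The interval of the ratio to control was 0.295 to 0.536.

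These 2 comparisons share the walked arrays and are not independent of each other. The fall against control passed the threshold in all 8 fits that left out 1 array (log2 fold change -1.46 to -1.16), and the fall against unloaded in 7 of 8, missing it without walked pool 2 (-1.05, adjusted p = 0.0793). Unloaded against control gave -0.19 ± 0.18 (adjusted p = 0.593, 95% interval -0.58 to 0.19 on the log2 scale).

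The second Dbp probe set from the same accession, J03179_at, had 24.2 and 58.4 in walked pools, 73.2, 87.0 and 56.5 in unloaded pools and 66.4, 69.1 and 94.5 in control pools. Its walked pools differed from each other, and walked pool 2 reached into the unloaded range. The log2 fold change was -0.92 ± 0.36 in walked against unloaded (adjusted p = 0.208) and -1.01 ± 0.36 in walked against control (adjusted p = 0.101). Without walked pool 1 these values were -0.28 (adjusted p = 0.800) and -0.37 (adjusted p = 0.606), and without walked pool 2 they were -1.55 (adjusted p = 0.0499) and -1.64 (adjusted p = 0.0410).

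Tef, from the same family, had 250.3 and 198 in walked pools, 239, 288 and 225 in unloaded pools and 278, 244 and 258 in control pools, so that all 3 groups overlapped. Its log2 fold changes were -0.06 ± 0.16, -0.16 ± 0.17 and -0.22 ± 0.17 for unloaded against control, for walked against unloaded and for walked against control (adjusted p = 0.873, 0.697 and 0.474). The 95% interval of the walked to control ratio was 0.657 to 1.117.

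Hlf had 3 dim probe sets. S79817mRNA_at had 59.7 and 39.1 in walked pools, 22.1, 27.7 and 44.8 in unloaded pools and 59.0, 13.4 and 51.1 in control pools. S79820_at had 23.7 and 20.2 in walked pools, 21.1, 38.5 and 29.0 in unloaded pools and 35.4, 27.4 and 13.6 in control pools. The groups overlapped on both, and the probe sets gave opposite signs in walked against unloaded (0.68 ± 0.59 and -0.39 ± 0.52). S79820_at, with a mean signal of 26.1, passed the filter of 25.8 narrowly and through its unloaded arrays. Their mean was 29.5, and the walked and control means of 22.0 and 25.4 were under the filter. The third, S79820_g_at, lay between 2.10 and 4.70 on all arrays, at or under the floor of 4.10 on 5 of 8, and was not tested.

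**Figure D2:**
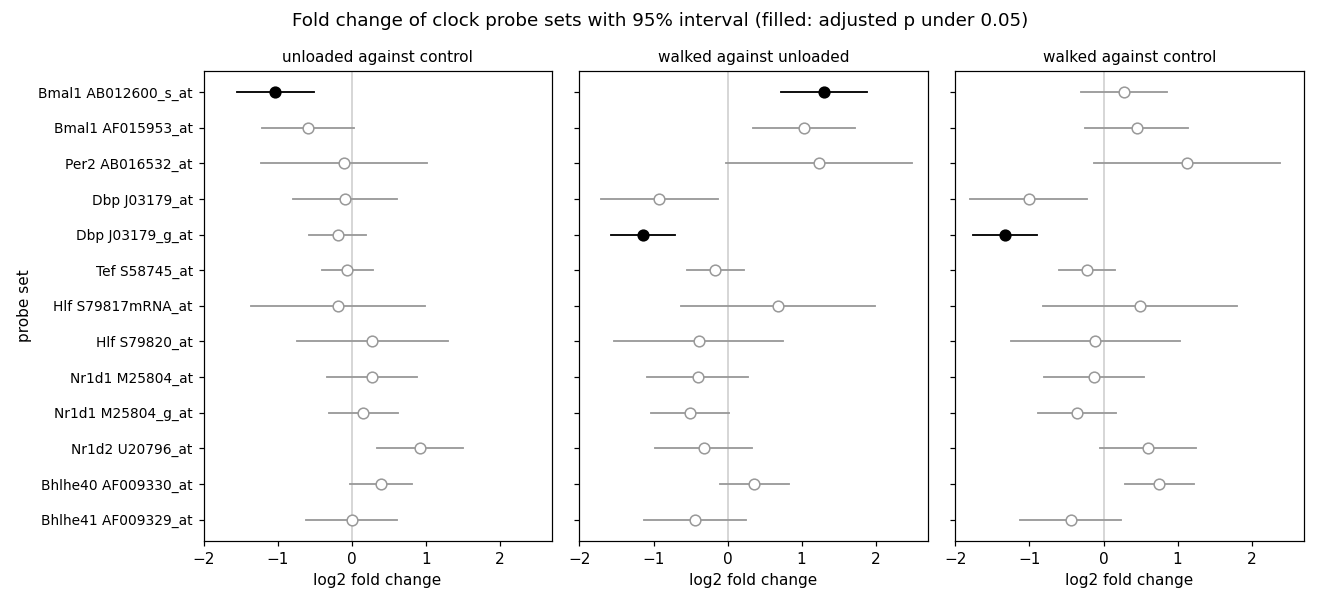
Log2 fold change (horizontal axis) of each tested clock probe set (vertical axis) in the 3 comparisons, with its 95% interval from limma. Filled points had an adjusted p under 0.05: AB012600_s_at of Bmal1 in the left and middle panels, and J03179_g_at of Dbp in both comparisons with walked.

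Counted together, 1 of 13 clock probe sets was called in unloaded against control, a fall, or 7.69%, against a background of 7.30% among all tested probe sets. Walking set against unloading had 1 rise and 1 fall, 15.4% against 4.20%, and walked set against control had 1 fall, 7.69% against 9.08%. With 13 probe sets from 9 genes, the first and last of these shares are close to the background, and the middle one rests on 2 probe sets. The groups did not overlap in 2 of 13 in unloaded against control (26.4% of all tested probe sets), 7 in the second comparison, walked against unloaded (35.3%), and 7 when walked was set against control (43.0%).

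The median log2 fold change over the 13 was -0.06 for unloaded against control, -0.32 for walked against unloaded and -0.11 for walked against control, against -0.08, -0.05 and -0.11 over all tested probe sets. Disregarding sign, the median size was 0.19, 0.51 and 0.45, against 0.26, 0.25 and 0.31. The median size among clock probe sets was thus below that of all tested probe sets in unloaded against control and above it in both comparisons that involve walked pools. The 13 include Per2, which passed the filter through its walked arrays, and S79820_at of Hlf, which passed it through its unloaded arrays. They also include repeat probe sets of Bmal1, Dbp, Nr1d1 and Hlf. The part of all these probe sets in the medians was not tested. Comparisons that share a group share its arrays.

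The plot of Bmal1 against Dbp sets apart the 3 groups by their 2 called members. Both probe sets were plotted because they were called between these same groups, so the separation adds no further evidence. Walked pools had high Bmal1 with low Dbp, unloaded pools low Bmal1 with Dbp near its control level, and control pools high levels of both. Pools of 1 group also differed in several members at once. Control pool 3 had the lowest signal of the controls on both Bmal1 probe sets and the highest on both probe sets of Dbp and of Nr1d1, and on Nr1d2 and Bhlhe41. Unloaded pool 2 had the lowest signal of the unloaded pools on both Bmal1 probe sets and the highest on both of Dbp, on Tef, Bhlhe40 and Bhlhe41, and on M25804_at of Nr1d1, but not on Nr1d2 or M25804_g_at. Over all tested probe sets, control pool 3 had -29.95 on the first principal component, against -14.25 and -16.3 for control pools 1 and 2. Its part in the clock values was not tested beyond leaving it out, which left the Bmal1 fall in unloaded soleus at -1.19 (adjusted p = 0.0186) and the Dbp fall in walked against control at -1.16 (adjusted p = 0.00330).

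**Figure D3:**
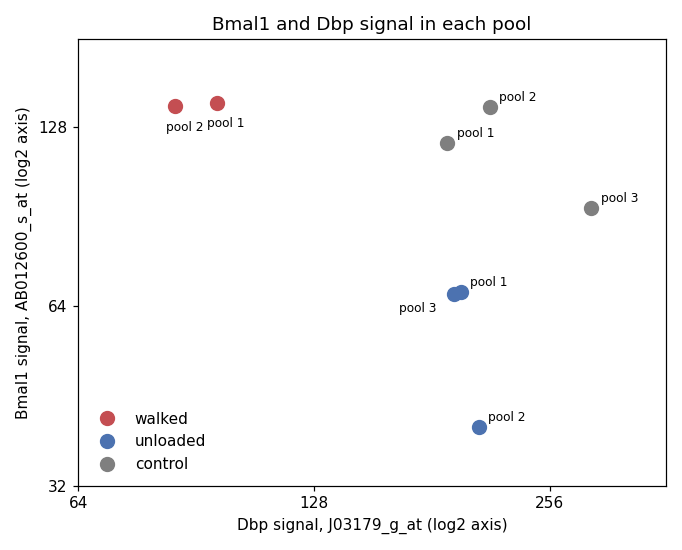
Signal of Bmal1 (AB012600_s_at, vertical) against that of Dbp (J03179_g_at, horizontal) in each of the 8 pools, both on log2 axes. Walked pools lie at the upper left, with Dbp at 85.1 and 96.2, and unloaded pools at the lower right, with Bmal1 between 40.1 and 67.6.

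Of the other clock components listed for this tissue, 10 genes were on the array, 8 of them were tested, and 0 were called by limma in any comparison. They were counted by the probe set with the highest mean signal. The casein kinase Csnk1d, which phosphorylates PER proteins, had log2 fold changes of 0.11 ± 0.13 in unloaded against control and 0.05 ± 0.15 in walked against unloaded, and Csnk1a1 0.09 ± 0.12 and -0.27 ± 0.14. The casein kinase 2 genes Csnk2a1 and Csnk2b had -0.19 ± 0.17 and -0.34 ± 0.16 in unloaded against control, and 0.12 ± 0.19 and 0.14 ± 0.18 in walked against unloaded. The kinase Gsk3b had -0.34 ± 0.22 and 0.01 ± 0.24, and the cAMP-responsive factor Creb1, which induces Per genes, 0.06 ± 0.48 and 0.24 ± 0.54. Of the AMP kinase catalytic subunits, Prkaa1 had -0.23 ± 0.33 and 0.26 ± 0.37. Prkaa2 had 17.0 and 4.91 in walked pools, 30.5, 42.3 and 23.2 in unloaded pools and 43.8, 47.4 and 24.5 in control pools, below both other groups in the walked pools but with an adjusted p of 0.146 against unloaded and 0.0588 against control. Timeless and Rorb were under the filter. The medians of the 8 tested genes in the 3 comparisons were -0.21, 0.09 and -0.12. Over all tested probe sets they were -0.08, -0.05 and -0.11. At an unadjusted limma p under 0.05, 0 of the counted probe sets differed in unloaded against control. That of Prkaa2 alone was lower in each comparison with walked. Among the probe sets not counted, X53428cds_s_at of Gsk3b was lower at that level in unloaded against control (-0.62 ± 0.27). Likewise rc_AI013513_at of Csnk1d was higher in walked against unloaded (0.47 ± 0.21). Neither was called.

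A further list held genes known as rhythmic outputs or as targets of the PAR bZIP and REV-ERB factors. Of 17 tested, 5 rose and 2 fell after unloading, 1 rose and 2 fell in walked against unloaded, and 3 rose and 1 fell when walked soleus was set against control, beside 7.30%, 4.20% and 9.08% of all tested probe sets called in these comparisons. The list was drawn up with earlier results of these data known, and several of its genes respond to load, hormones or fasting as well. In unloaded soleus the rises were in Tfrc, the transferrin receptor (3.04 ± 0.45 on the log2 scale, imprecise in size because control signals were only 3.70 to 11.6, 1 of them under the floor), the Kruppel-like factors Klf10 (1.24 ± 0.19) and Klf9 (0.90 ± 0.15), the uncoupling protein Ucp3 (1.08 ± 0.20) and the pyruvate dehydrogenase kinase Pdk4 (0.57 ± 0.15). The falls were in Srebf1, the lipid synthesis regulator (-1.19 ± 0.24), and in Alas1, the first enzyme of heme synthesis (-0.70 ± 0.16; -0.38 and not called on its other probe set). With 1 array left out in turn, a check added after seeing the data, Tfrc, Klf10, Klf9, Ucp3 and Srebf1 passed the threshold in all 8 fits, Alas1 in 6, missing it without control pool 1 or unloaded pool 2 (adjusted p up to 0.0901), and Pdk4 in 1, without control pool 2 (up to 0.116 otherwise).

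After walking, Ucp3 (-2.003 ± 0.23) and Klf10 (-1.97 ± 0.22) fell below unloaded, and Hk2, a hexokinase, rose (1.19 ± 0.23). The other tested probe set of Hk2, D26393exon_s_at, was also called, with 3.17 ± 0.48 against unloaded and 1.93 ± 0.48 against control. Klf10, an E-box target of BMAL1 and CLOCK in mouse, had 48.7 and 66.9 in walked pools, 219.6, 215 and 238 in unloaded pools and 79.0, 92.7 and 117 in control pools on rc_AI172476_at. The groups did not overlap, with unloaded highest and walked lowest. Its other tested probe set, rc_AI071299_at, had 38.4 and 31.9, 70.8, 60.1 and 99.6, and 43.3, 43.5 and 53.6 in the same groups and was not called. Against control, walked soleus had higher Tfrc (3.85 ± 0.50), Cdkn1a (1.37 ± 0.27), an inhibitor of the cell cycle, and Hk2 (0.83 ± 0.23), and lower Ucp3 (-0.93 ± 0.23). With 1 array left out, Ucp3 and Klf10 against unloaded and Tfrc against control passed in all 8 fits. Against unloaded, Hk2 passed in 6, with adjusted p of 0.0517 where unloaded pool 3 was left out and 0.1697 where walked pool 2 was. Against control, the counted probe set of Hk2 passed in 0 (log2 fold change 0.59 to 1.06). Cdkn1a against control passed in 6 and missed the threshold without either walked pool (adjusted p of 0.0874 and 0.0786), and its other probe set had 1.68 ± 0.69 (adjusted p = 0.154) and was not called. Ucp3 against control also passed in 6, with adjusted p of 0.0828 in the absence of control pool 2 and 0.251 in the absence of walked pool 2. The list median was 0.03 after unloading, 0.19 for walked against unloaded and 0.03 for walked against control.

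**Figure D4:**
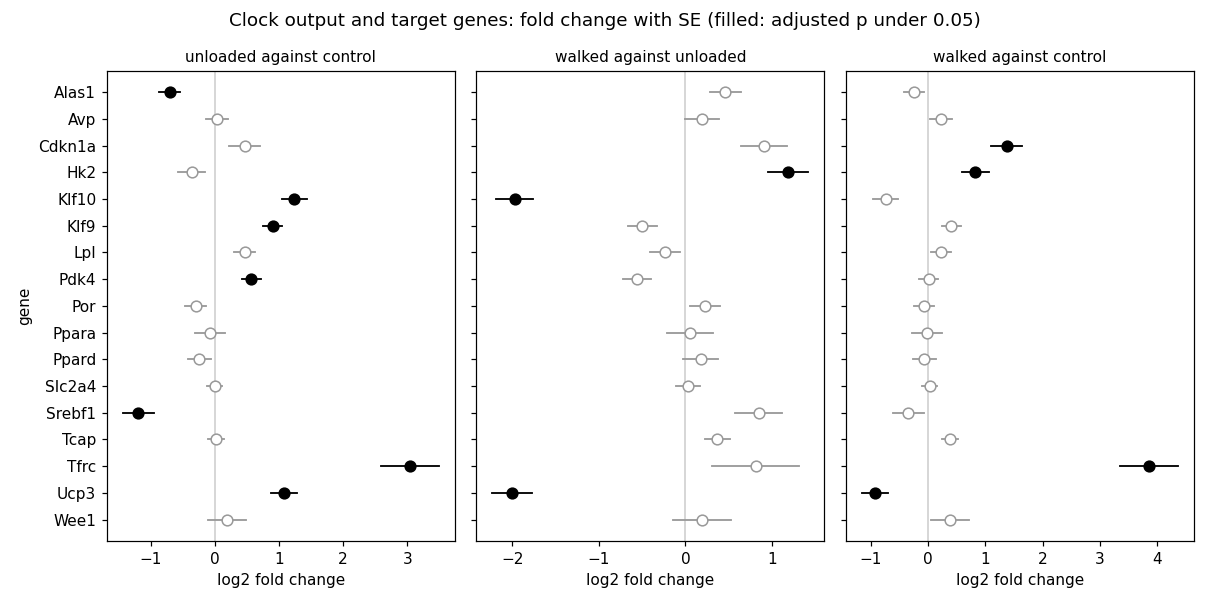
Log2 fold change (horizontal axis) with its SE for the 17 tested clock output and target genes (vertical axis) in the 3 comparisons, 1 probe set per gene. Filled points had an adjusted p under 0.05, 7 of 17 after unloading, 3 in the middle panel and 4 in the right panel.

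Signals that can reset the clock were followed through 2 other lists. Of 9 tested glucocorticoid targets, 2 rose and 1 fell after unloading, 2 rose in walked against unloaded, and 2 rose when walked was set against control. Beside these stand the background shares of 7.30%, 4.20% and 9.08%. Klf9 and Errfi1 (0.88 ± 0.22) rose in unloaded soleus while Dusp1 fell (-1.65 ± 0.19). After walking, Dusp1 (2.39 ± 0.22) and the kinase Sgk1 (1.25 ± 0.23) rose above unloaded, and Errfi1 (1.79 ± 0.24) and Sgk1 (0.94 ± 0.23) rose above control, with Sgk1 passing in 3 of 8 fits there. Dusp1 was also called above control on S74351_s_at (1.17) and S81478_s_at (1.08), but not on its counted probe set (0.75). Errfi1 was called above unloaded on X07266cds_s_at (1.74), but not on its counted probe set (0.91). Glul was called above control on rc_AA852004_s_at (0.62), but not on its counted probe set (0.19). The Errfi1 rise in unloaded soleus passed the threshold in 2 of 8 fits without 1 array, without control pool 2 or 3 (adjusted p up to 0.116 otherwise), and that of Sgk1 above unloaded in 6, missing it without either walked pool (up to 0.0995). Of 19 tested immediate early genes, 1 rose and 7 fell after unloading, 11 rose and 1 fell in walked against unloaded, and 6 rose and 0 fell when walked was set against control, beside the same shares over all tested probe sets. After unloading Klf10 rose, and Klf6 (-2.12 ± 0.24), Nr4a1 (-2.10 ± 0.24), Dusp1 and Atf3 (-1.46 ± 0.21) fell. Id1 (-1.43 ± 0.15), Egr1 (-1.14 ± 0.17) and Junb (-0.76 ± 0.20) fell as well. The other tested probe sets of Dusp1 and Nr4a1, and M18416_at of Egr1 (-0.87), also fell. Those of Id1 (L23148_at, -0.38) and Junb (rc_AA891041_at, -0.45) were not called. Nor were rc_AI176662_s_at (-0.21) and U75398_s_at (0.10) of Egr1. Klf4, Fos and Crem had called falls after unloading on L26292_at (-1.12), X03347cds_g_at (-1.02) and U04835_at (-1.22). Their counted probe sets had -0.53, -0.77 and -0.48 and were not called. In walked against unloaded the 7 genes counted as falls rose, with Nr4a1 at 4.41 ± 0.27 and Atf3 at 4.12 ± 0.23. Klf4, Crem, Nr4a3 and Fos rose there as well. Among these rises, that of Nr4a3 missed the threshold without unloaded pool 2 (adjusted p = 0.0563). Nr4a3 and Fos missed it without walked pool 1, which left 1 walked array (log2 fold change 2.241 and 1.805). Nr4a3, Fos and Junb missed it without walked pool 2, again with 1 walked array left (1.836, 1.589 and 1.198). Against control the walked rises were in Atf3, Nr4a1, Klf4, Nr4a3, Crem and Egr1. Of these 6, Egr1 and Nr4a3 missed the threshold without control pool 1 (adjusted p = 0.0632 and 0.0725). They also missed it without control pool 3 (0.0512 and 0.0601). Both missed it without walked pool 1, which left 1 walked array (log2 fold change 0.92 and 1.91). Egr1, Klf4 and Nr4a3 missed it without walked pool 2, again with 1 walked array left (0.71, 1.91 and 1.51). The Junb fall after unloading passed in 2 of 8 fits, those that left out control pool 1 or unloaded pool 3 (adjusted p up to 0.141 in the rest). The median log2 fold changes were -0.15, 0.20 and 0.32 for the glucocorticoid list and -0.53, 1.70 and 0.56 for the immediate early genes, in the same order. Klf9, Klf10 and Dusp1 each stand in more than 1 of the lists of output genes, glucocorticoid targets and immediate early genes.

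For each member, the 3 genes whose log2 signal followed it most closely over the 8 arrays were listed as a description. The points share 3 groups, so that genes with the same group differences rank high. Bmal1 was followed most closely by Ywhaz (Pearson r = 0.960), Actb (0.947) and Mapk6 (0.946), and Dbp by Polr1b (0.976), Nicn1 (0.975) and Eci1 (0.975). Nr1d2 was followed by Rps6 (0.976), Ssbp1 (0.954) and Tnks2 (0.942), Bhlhe40 by Maoa (0.951), Kcnj15 (0.918) and Furin (0.910), and Bhlhe41 by Usf2 (0.969), Alg10 (0.959) and Man2c1 (0.935). Per2 was followed by the other probe set of Csnk1d (0.956), by Cdkn1a (0.872) and by Psma5 (0.8697). The highest values were 0.928 for Tef (Nacc1), 0.9397 for Hlf (Cyp2d2) and 0.931 for Nr1d1 (Ivd). No other clock member was among the 3 closest genes of any member.

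The median signal of the arrays was 37.2 to 42.4. Marker signals were summed over all probe sets of the listed genes, tested or not, so a gene with several counts more than once. The 9 slow fibre genes had 19 probe sets and the 7 fibroblast genes 21. Markers of slow muscle fibres were bright, with a summed signal over 9 genes of 49299.7 to 58440.2 in walked, 37157 to 53940.3 in unloaded and 31885 to 38197 in control pools. Sums for fast fibres (9 genes) were 10242 to 11156 in walked, 13671 to 15786 in unloaded and 10609 to 13356 in control pools. Over 6 leukocyte marker genes the sum was 1418 to 1499 in walked, 1734 to 2075 in unloaded and 1822 to 2042 in control pools. Summed signals of fibroblast markers (7 genes) were 12104 to 12571 in walked, 14675 to 21189 in unloaded and 11312 to 17318 in control pools. Those of smooth muscle markers (5 genes) were 5367 to 6574, 4454 to 5354 and 5010 to 5497, those of adipocyte markers (5 genes) 1584 to 2024, 1714 to 1953 and 1652 to 2023, and those of red cell markers (2 genes) 2714 to 3764, 3478 to 5565 and 3945 to 4801, in the same order. Those of Schwann cell and nerve markers (6 genes) were 1563 to 1676, 1455 to 1578 and 1793 to 1923, and those of endothelial markers (4 genes) 289 to 327, 291 to 328 and 314 to 403.5, again in that order. No marker probe set was listed at 0 on any array.

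Markers moved in every comparison, and in both directions. In unloaded against control, where Bmal1 fell, 2 of 7 fibroblast markers rose, Dcn (1.83 ± 0.18 on the log2 scale) and Lum (0.82 ± 0.20), with 1 of 4 adipocyte markers, Fabp4 (1.52 ± 0.20), and 1 of 5 leukocyte markers, Cd48 (1.40 ± 0.25). The falls were 1 of 9 slow fibre markers, Tpm3 (-0.95 ± 0.17), and 1 of 5 of smooth muscle, Tagln (-0.96 ± 0.22). Of Schwann cells and nerve, 1 of 5 fell, Ngfr (-0.61 ± 0.13). The other tested probe set of Ngfr, X05137_at, had 0.43 ± 0.27 and was not called. In walked against unloaded, where Bmal1 rose and Dbp fell, 0 of 9 slow fibre markers were called by limma (1 was higher at an unadjusted p under 0.05), and falls were seen in 2 of 9 fast fibre markers, Myh2 (-0.64 ± 0.14) and Tnni2 (-0.83 ± 0.18), in RT1-Da (-0.85 ± 0.15) of the leukocytes and in Prx (-1.23 ± 0.30) of Schwann cells. The fibroblast markers Col1a1 (-0.94 ± 0.22 on Z78279_at) and Dcn (-1.19 ± 0.21 on X59859_r_at) fell there as well. Their counted (brightest) probe sets were not called. In walked against control, where Dbp also fell, 5 of 9 slow fibre markers rose (Acta1, Ckm, Myl2, Myl3 and Tnni1). Tpm3 went the other way, with -0.47 ± 0.19 on its brightest probe set (not called) and a called -1.71 ± 0.44 on L24776_at. In the same comparison the leukocyte markers RT1-Da (-0.58 ± 0.15) and Cd74 (-0.65 ± 0.16) fell, while Cd48 had 0.92 ± 0.28 (adjusted p = 0.0649, not called). The fast fibre marker Casq1 (-0.48 ± 0.13) and the fibroblast marker Col1a2 (-1.03 ± 0.22) fell there. Dcn rose (1.51 ± 0.20), also on Z12298cds_s_at (2.45), but was not called on rc_AI639233_s_at (0.33) or X59859_r_at (0.27). On the counted probe sets, the calls of Dcn, Fabp4 and Cd48 and the Tpm3 fall after unloading passed in all 8 fits that left out 1 array, and the other marker calls in 2 to 6. The part of fibre content or of other cell types in the clock values was not tested.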

How the data were processed

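Soleus RNA of 8 pools was labelled from 10 microg total RNA and measured on one-colour Affymetrix arrays, per the labels. The deposited values are signal intensities on a linear scale, 1 per probe set, and MAS5 is named in the submitters' processing notes; neither its version nor its scaling target is given in the sources used here. MAS5 subtracts a background or mismatch estimate, so dim signals are noisy. The number of arrays limits the precision.

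Arrays were rescaled to a common 2% trimmed mean (148.6), signals below a floor at the 10th percentile (4.10) were raised to it, and log2 was taken. Probe sets under the 40th percentile of mean signal (25.8) were left out. limma 3.58.1 in R 4.3.3 (lmFit, contrasts.fit, eBayes with trend, two-sided) was fitted to all 8 arrays with 3 groups, with 5 residual and 6.00 prior degrees of freedom, and p-values were adjusted over 5244 probe sets by Benjamini-Hochberg. The script was tested on simulated data. With 3 against 3 or 3 against 2 arrays, an exact permutation test of 1 gene cannot go below p = 0.1. Nothing in the labels says how pools were formed beyond their size, so the p-values measure the spread between pools.

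Symbols came from the platform annotation through Entrez IDs to the GRCr8 gene table: of 8740 probe sets 7006 had 1 symbol, 308 several and 1426 none here. The members and gene lists were chosen with earlier results of these data known. All member probe sets are named, and list genes whose counted (brightest) probe set was called, with every tested gene of the other clock components. Some list genes called only on another probe set are named as well. Motifs were searched in RefSeq promoters of GRCr8. Same-numbered pools did not deviate together (correlations of deviations from group means -0.07 to 0.05), so the pool number is an alternative only. The others were quantile normalization, no scaling, another floor or none, no filter or a stricter one, no trend, the 2 compared groups alone, and each array left out in turn.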

Additional observations from a re-analysis of the deposited data

How the results depend on the processing

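No paired sampling is stated, and same-numbered pools did not deviate together. The direction of the called Bmal1 and Dbp changes was the same under every alternative run. Probe sets called over the whole array moved more. In unloaded against control the count was 383, and 228 with no filter, 243 without a trend, and 230 to 405 with 1 array left out. In walked against unloaded it was 220, and 120 to 261 with 1 array left out. In walked against control it was 476, and 216 with no filter, 211 without a trend, 251 with a block for pool number, and 104 to 504 with 1 array left out. Among the 3 comparisons of the clock probe sets, 623 of the 645 refitted values kept their side of the threshold, 11 lost a call and 11 gained one. Most were refits of probe sets not called in the main fit, so this count says little about the Bmal1 and Dbp calls. In the 9 settings other than leaving out an array, the Bmal1 fall kept its call in 7 and the Bmal1 rise in 6. Both Dbp falls kept theirs in all 9. The losses were the Bmal1 fall with no filter (adjusted p = 0.109) and without a trend (0.0605), the Bmal1 rise after walking with no filter (0.0975), without a trend (0.0512) and with that block (0.0501), and those given above for single arrays. Bhlhe40 in walked against control passed the threshold after quantile normalization (0.0357), with no floor (0.0497), with the stricter filter (0.0354), in the fit of the 2 groups alone (0.0471) and without unloaded pool 2 or 3, and Nr1d2 in unloaded against control after quantile normalization (0.0496), with the stricter filter (0.0453) and without unloaded pool 3. The pool block changed no other clock call. Dim signals close to the filter, such as those of Per2 and of S79820_at of Hlf, limit what can be seen for these genes.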
